A study of Mus musculus with 8 samples.

Results

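The genes described here are 51 genes of DNA replication and cell division, measured in blood monocytes of male C57BL/6 mice. They were chosen by name and not by their values, and each was read from probe sets annotated to exactly 1 gene symbol, by the probe set of greatest average signal across the 8 arrays. All 51 were measured, among 18193 genes in all. They comprise 20 genes of replication, 25 of mitosis, 4 cell cycle transcription factors and 2 others. The mice had received fluorescent latex beads of 1 µm into the blood, and monocytes were sorted 4 days later by Gr1 level and by whether they carried beads. The groups are Gr1lo (nonclassical, low in Ly-6C) monocytes with latex beads, Gr1lo monocytes with no latex beads, Gr1hi (classical, high in Ly-6C) monocytes with latex beads and Gr1hi monocytes with no latex beads, with 2 biological replicates, and so 2 arrays, in each. The descriptions conflict on clodronate liposomes, which deplete phagocytes and are followed by repopulation of the blood from the marrow. The design text places the depletion 3 days before the beads for all mice, whereas the treatment protocol uses it for labelling Gr1hi cells and leaves it out for Gr1lo cells. Under the second reading the subsets also differ in pretreatment, and the effects of subset and depletion on these genes cannot be told apart. The number of mice and of cells behind each array is not given in the sources used here, so p-values measure the spread between these arrays.

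A dividing cell first licenses its replication origins by loading the MCM helicase, then copies its DNA with the help of the sliding clamp PCNA and a supply of nucleotides, and later expresses the cyclins, kinases and kinesins that separate the chromosomes. Replication genes are known as targets of E2F factors, and mitosis genes as targets of the DREAM and MuvB complexes, which bind CHR elements, and of NF-Y, which binds CCAAT boxes. Classical monocytes leave the bone marrow shortly after their dividing precursors have matured, and nonclassical monocytes are known to arise largely from classical monocytes in the blood. In bulk RNA, fewer cycling cells and less of these transcripts in each cell cannot be told apart.

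The promoters of both classes differed in the short sequences they hold. In RefSeq windows of 300 bases on GRCm38.p6, running from 250 bases before each annotated start to 50 bases after it, 42 of the 51 genes had 45 windows. E2F-type heptamers (TTCCCGC or TTCGCGC or TTGCCGC or TTGGCGC, on either strand, overlaps with other motifs allowed) were found in 68.4% of the 19 windows of replication genes, 9.09% of the 22 windows of mitosis genes and 9.57% of all 32851 windows. CHR-type hexamers (TTTGAA or TTCGAA) were found in 15.8% of the replication windows, 86.4% of the mitosis windows and 19.2% of all windows. The pentamer CCAAT was found in 68.4%, 90.9% and 37.4% of the same windows. The contrast was weaker among other genes of these processes, outside the 51. In 48 windows of other mitosis genes, E2F-type matches were found in 31.2%, CHR-type in 64.6% and CCAAT in 64.6%. In 39 windows of other replication genes the shares were 61.5%, 23.1% and 48.7%. A match is a string of letters and not a measured binding site. Shown, among genes that have a window, are those of the replication genes with the smallest p between the subsets (Cdt1, Mcm7 and Tk1) and then of the mitosis genes with the smallest p (Cdca3, Ube2c and Ccnb2), 5′ to 3′ on each gene's strand, with every match to these motifs in capitals. They lie at chr8:122567765-122568064 on the plus strand (Cdt1), chr5:138171834-138172133 on the minus strand (Mcm7, the first of 2 annotated windows), chr11:117825965-117826264 on the minus strand (Tk1), chr6:124829926-124830225 on the plus strand (Cdca3), chr2:164769679-164769978 on the plus strand (Ube2c) and chr9:70421505-70421804 on the minus strand (Ccnb2).
Cdt1: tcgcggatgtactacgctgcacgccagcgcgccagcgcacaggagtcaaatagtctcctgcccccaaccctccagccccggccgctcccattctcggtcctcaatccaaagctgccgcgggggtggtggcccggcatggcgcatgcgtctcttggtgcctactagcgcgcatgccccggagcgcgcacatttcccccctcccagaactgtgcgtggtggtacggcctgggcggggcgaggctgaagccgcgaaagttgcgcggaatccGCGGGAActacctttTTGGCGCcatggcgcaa
Mcm7: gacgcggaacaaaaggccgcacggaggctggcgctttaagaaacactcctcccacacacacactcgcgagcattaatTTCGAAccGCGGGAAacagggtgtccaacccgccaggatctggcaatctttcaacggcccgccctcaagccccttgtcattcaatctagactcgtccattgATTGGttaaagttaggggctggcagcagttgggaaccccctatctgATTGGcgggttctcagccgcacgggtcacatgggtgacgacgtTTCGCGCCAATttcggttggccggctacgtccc
Tk1: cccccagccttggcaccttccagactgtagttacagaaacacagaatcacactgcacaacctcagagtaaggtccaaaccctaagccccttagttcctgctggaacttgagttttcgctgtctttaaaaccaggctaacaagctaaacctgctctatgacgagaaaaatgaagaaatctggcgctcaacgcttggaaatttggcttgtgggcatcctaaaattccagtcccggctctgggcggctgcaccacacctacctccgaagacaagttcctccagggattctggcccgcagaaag
Cdca3: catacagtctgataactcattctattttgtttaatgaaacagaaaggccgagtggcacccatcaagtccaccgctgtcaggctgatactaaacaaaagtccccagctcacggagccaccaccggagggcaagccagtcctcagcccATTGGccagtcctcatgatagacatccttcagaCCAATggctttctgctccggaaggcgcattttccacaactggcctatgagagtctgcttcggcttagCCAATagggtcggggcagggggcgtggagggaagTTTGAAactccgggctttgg
Ube2c: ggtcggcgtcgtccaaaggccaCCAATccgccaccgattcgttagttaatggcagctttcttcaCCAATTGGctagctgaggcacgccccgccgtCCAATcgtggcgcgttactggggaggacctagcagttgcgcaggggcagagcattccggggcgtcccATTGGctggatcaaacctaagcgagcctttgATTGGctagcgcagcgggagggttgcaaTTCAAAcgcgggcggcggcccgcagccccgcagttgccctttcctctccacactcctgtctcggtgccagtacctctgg
Ccnb2: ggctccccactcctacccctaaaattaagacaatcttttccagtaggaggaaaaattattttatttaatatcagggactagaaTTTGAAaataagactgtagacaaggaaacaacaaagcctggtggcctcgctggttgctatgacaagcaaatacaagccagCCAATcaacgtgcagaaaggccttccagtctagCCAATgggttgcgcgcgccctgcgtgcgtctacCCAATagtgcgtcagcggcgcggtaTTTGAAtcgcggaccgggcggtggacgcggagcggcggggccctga
In these letters, Cdt1 holds 2 E2F-type matches just after its start, at positions 18 to 24 and 33 to 39 when the start is counted as 0. Mcm7 holds matches of all 3 kinds. After its start, 2 E2F-type matches on opposite strands, at 17 to 23 and 20 to 26, overlap each other and a CCAAT at 23 to 27. Cdca3, Ube2c and Ccnb2 hold CCAAT and CHR-type matches and no E2F-type match, and the Tk1 window holds none of the motifs searched.

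Values are on the log2 scale of the deposited table, and a background level of 6.98 was set from genes of olfactory, vomeronasal and taste receptors and keratin-associated proteins, which monocytes are not known to use. The median of all probe sets lay between 6.12 and 6.19 on every array. The sort labels were borne out by surface and subset genes: 8 of 8 nonclassical markers, such as Treml4 and Nr4a1, were higher in Gr1lo cells, and 5 of 5 measured classical markers, such as Ccr2 and Vcan, were lower. Poly-A control transcripts, which are added during labelling, averaged 9.70 in Gr1lo cells with beads, 8.39 in Gr1lo cells without beads, 9.0 in Gr1hi cells with beads and 7.47 in Gr1hi cells without beads, and their part in the results was not tested.

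Array 1 of Gr1lo cells without beads stood apart from array 2 for the genes described here. On it, 44 of the 51 genes read higher than on array 2, with a median difference of 0.29, whereas 45.0% of all genes read higher, with a median of -0.02. The same array read higher for the classical marker Fn1 (13.63 against 10.87), the marrow protease Prtn3 (8.67 against 6.89) and the platelet chemokine Pf4 (11.36 against 7.70). It read lower for the 18S probe sets, at 8.58 against 10.13. The number that read higher on array 1 was 28 of 51 in Gr1lo cells with beads, 15 in Gr1hi cells with beads and 19 in Gr1hi cells without beads. Over all genes, 47.2%, 52.6% and 52.1% read higher on array 1 in the same groups. In both Gr1hi groups most of the 51 genes thus read higher on array 2. Genes whose call changed when array 1 of Gr1lo cells without beads was left out are given with that value for the subset comparisons averaged over bead state and without beads.

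Fewer of the 51 genes were above the background level in Gr1lo than in Gr1hi cells. In Gr1lo cells 22 were above it with beads and 21 without, and in Gr1hi cells 33 were above it with beads and 33 without. The contrast lay mostly in mitosis, where 6 and 5 of 25 genes were above background in Gr1lo cells with and without beads, against 13 and 14 in Gr1hi cells. Of the 20 replication genes, 12 and 12 were above background in Gr1lo cells and 15 and 14 in Gr1hi cells. Above background in both Gr1hi groups and in neither Gr1lo group were 10 genes: Rrm2 and Tk1 of replication, Mki67, Top2a, Ube2c, Cdk1, Ccnb2, Birc5 and Cdca3 of mitosis, and the factor E2f8. In all 4 groups 21 genes were above background, 12 of them replication genes and 5 mitosis genes. Another 17, among them 11 mitosis genes, were below it in every group, so that their differences are between faint signals. The share of all genes above background in each group is not given here, so these counts describe the 51 genes alone.

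**Figure D1:**
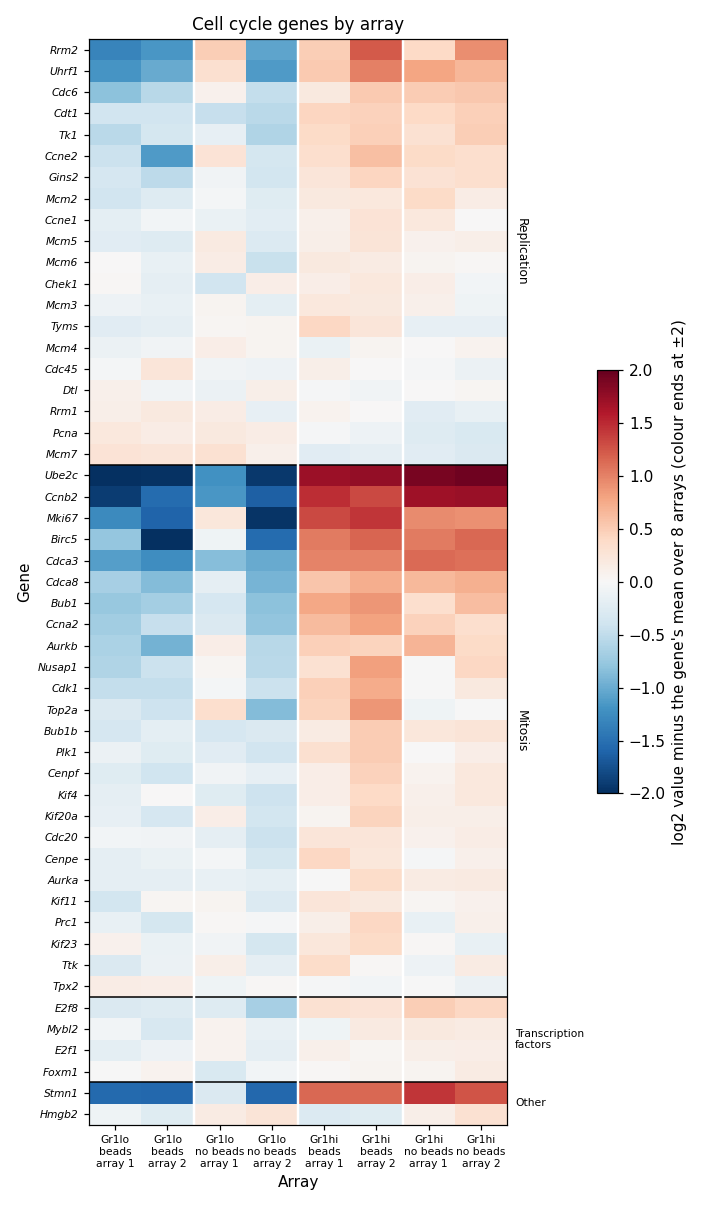
Heat map of the 51 genes (rows, grouped by role and ordered by their Gr1lo minus Gr1hi difference) on the 8 arrays (columns); colour is the log2 value minus the gene's mean over the arrays, and the scale ends at 2 in either direction. Ube2c, Ccnb2, Mki67, Birc5, Cdca3 and Stmn1 are low on most Gr1lo arrays and high on the Gr1hi arrays, and array 1 of Gr1lo cells without beads is paler than array 2.

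Which division genes differ between Gr1lo and Gr1hi monocytes? Averaged over bead state, 31 of the 51 genes fell in Gr1lo cells and 2 rose (limma, Benjamini-Hochberg adjusted p under 0.05 over all genes). Among all 18193 genes 35.6% were called in this comparison, 20.9% as lower and 14.8% as higher, and among the 8790 genes with a mean above background 30.7% were called lower and 25.5% higher. The falls were also large: 11 of the 51 genes fell by more than 1 log2 unit, against 2.44% of all genes, and 6 fell by more than 2, against 0.467% of all genes. Every Gr1lo array read below every Gr1hi array for 27 of the 51 genes, against 19.7% of all genes and 28.7% of those above background. Every Gr1lo array read above every Gr1hi array for 2, against 13.9% of all genes. Without array 1 of Gr1lo cells without beads, 39 of the 51 genes were called, against 32.3% of all genes.

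By role, mitosis genes fell in 19 of 25 cases and rose in none, with a median difference of -0.58. Replication genes fell in 10 of 20 cases and rose in 2, with a median of -0.26, and the median of all genes was -0.05. Of the 4 transcription factors 1 fell, and of the other 2 genes 1 fell. Among the genes called, 10 were below background in all 4 groups, and their differences are between faint signals. Whether the medians of the mitosis and replication genes differ from each other was not tested.

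**Figure D2:**
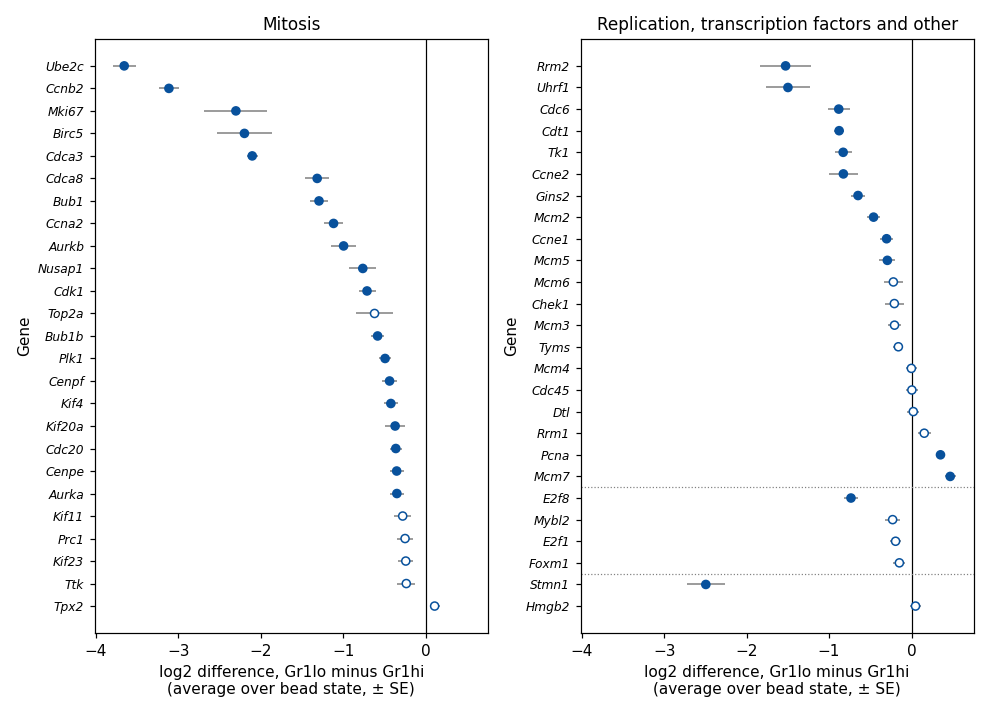
Log2 difference between Gr1lo and Gr1hi cells, averaged over bead state, with its standard error (bars) for each of the 51 genes; filled points were called at an adjusted p under 0.05. Mitosis genes (left) extend to -3.66 for Ube2c, while replication genes (right) lie between -1.53 for Rrm2 and 0.47 for Mcm7.

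Ube2c and Ccnb2 had the largest falls of the set. Ube2c read 5.80 and 6.03 in Gr1lo cells with beads, 6.78 and 6.08 in Gr1lo cells without beads, 9.71 and 9.76 in Gr1hi cells with beads, and 9.90 and 9.94 in Gr1hi cells without beads. All 4 Gr1lo arrays were under the background level and lay far below the 4 Gr1hi arrays. Ube2c encodes the ubiquitin-conjugating enzyme that works with the anaphase-promoting complex to destroy mitotic cyclins. Its difference was -3.66 ± 0.14 (SE; limma adjusted p = 5.28e-07), the 8th largest fall among all genes. Because Gr1lo cells were under background, a level set at background bounds the change: Ube2c was at least 7.21-fold lower in Gr1lo cells. Ccnb2 read 5.96 and 6.33 in Gr1lo cells with beads, 6.70 and 6.23 in Gr1lo cells without beads, 9.34 and 9.17 in Gr1hi cells with beads, and 9.56 and 9.60 in Gr1hi cells without beads. The groups did not overlap, and the bead difference was -0.32 in each subset, which did not pass the test. Ccnb2, a B-type cyclin that activates Cdk1 at mitotic entry, fell by 3.11 ± 0.12 (adjusted p = 5.28e-07) and was at least 5.43-fold lower in Gr1lo cells.

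Markers and regulators of proliferating cells followed. Mki67 read 6.14 and 5.82 in Gr1lo cells with beads, 7.64 and 5.46 in Gr1lo cells without beads, 8.73 and 8.84 in Gr1hi cells with beads, and 8.36 and 8.33 in Gr1hi cells without beads. Ki-67, the protein of Mki67, coats chromosomes in mitosis and is a standard label of cycling cells. The 2 Gr1lo arrays without beads were far apart, and array 1 was the only Gr1lo array above background, yet it was still under all Gr1hi arrays. The difference was -2.30 ± 0.38 (adjusted p = 0.00155), and -2.85 (adjusted p = 3.80e-07) without that array. Birc5 read 6.07 and 4.86 in Gr1lo cells with beads, 6.76 and 5.32 in Gr1lo cells without beads, 7.89 and 8.01 in Gr1hi cells with beads, and 7.89 and 8.00 in Gr1hi cells without beads. Birc5 encodes survivin, a subunit of the chromosomal passenger complex. The Gr1hi arrays agreed closely, the Gr1lo arrays spread widely, and the subsets did not overlap (difference -2.20 ± 0.33, adjusted p = 0.000866). Its partners in that complex fell too, Cdca8 (borealin) by 1.32 ± 0.15 (adjusted p = 0.000163) and the kinase Aurkb by 1.00 ± 0.15 (adjusted p = 0.000897).

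Cdca3, which encodes a substrate adaptor thought to help remove an inhibitor of mitotic entry, had the smallest p of the set. Cdca3 read 5.92 and 5.78 in Gr1lo cells with beads, 6.17 and 6.01 in Gr1lo cells without beads, 8.01 and 8.01 in Gr1hi cells with beads, and 8.15 and 8.13 in Gr1hi cells without beads. Replicates lay close together and the subsets were well separated, with a difference of -2.10 ± 0.07 (adjusted p = 1.77e-07). Averaging its 3 probe sets reduced the difference to -0.85 (adjusted p = 5.09e-06).

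Cyclin and kinase genes of mitotic entry fell by smaller amounts. Ccna2, the cyclin of S phase and early mitosis, averaged 7.0 ± 0.23 in Gr1lo cells and 8.11 ± 0.20 in Gr1hi cells (SD, n = 4 each) and fell by 1.12 ± 0.12 (adjusted p = 0.00011). Cdk1 read 6.56 and 6.55 in Gr1lo cells with beads, 6.99 and 6.60 in Gr1lo cells without beads, 7.51 and 7.77 in Gr1hi cells with beads, and 7.03 and 7.23 in Gr1hi cells without beads. Cdk1 is the kinase that drives mitotic entry. Gr1hi cells with beads read highest and Gr1lo arrays lowest, without overlap, and the difference was -0.71 ± 0.10 (adjusted p = 0.000733). Plk1, the polo-like kinase of mitotic entry, fell by 0.49 ± 0.07 (adjusted p = 0.000861) at levels below background. Aurka, the kinase of spindle poles, fell by 0.35 ± 0.09 (adjusted p = 0.0123), also below background.

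The spindle checkpoint genes Bub1 and Bub1b both fell, while their partner kinase Ttk did not pass the test. Bub1 averaged 4.94 ± 0.21 in Gr1lo cells and 6.23 ± 0.24 in Gr1hi cells (SD, n = 4 each), a difference of -1.29 ± 0.11 (adjusted p = 3.77e-05), with every array below background. Bub1b fell by 0.58 ± 0.08 (adjusted p = 0.00068) and was above background in all groups. Ttk had a difference of -0.23 ± 0.11 (adjusted p = 0.134), and averaging its probe sets gave -0.21 (adjusted p = 0.047). Cdc20, which activates the anaphase-promoting complex once the checkpoint is satisfied, fell by 0.36 ± 0.07 (adjusted p = 0.00347).

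Genes of kinetochores, motors and the spindle made up most of the smaller differences. The kinetochore genes Cenpf and Cenpe fell by 0.44 ± 0.09 (adjusted p = 0.0043) and 0.35 ± 0.09 (adjusted p = 0.0126), and the spindle protein Nusap1 by 0.76 ± 0.16 (adjusted p = 0.00598). Among kinesins, the chromosome-bound Kif4 fell by 0.42 ± 0.09 (adjusted p = 0.00459) and Kif20a, a motor of cytokinesis, by 0.37 ± 0.12 (adjusted p = 0.0456). Kif11, which pushes spindle poles apart, and Kif23, of the central spindle, had differences of -0.28 and -0.24 that did not pass (adjusted p = 0.0703 and 0.0716). Without array 1 of Gr1lo cells without beads they were -0.36 (adjusted p = 0.0285) and -0.31 (adjusted p = 0.0295). Prc1, which bundles midzone microtubules, was at -0.25 (adjusted p = 0.069). Tpx2, a spindle assembly factor that activates Aurora A, was the only mitosis gene with a positive difference, 0.11 ± 0.06 (adjusted p = 0.197). Its sign rests on the kept probe set: averaging all 4 gave -0.14 (adjusted p = 0.0646). The calls of Aurka, Cenpe and Cenpf were lost when all probe sets of each gene were averaged (adjusted p = 0.0537, 0.0584 and 0.192). The call of Kif20a was lost in 9 of 14 alternatives.

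Top2a, the topoisomerase that untangles replicated chromosomes, showed how much array 1 weighs. Top2a read 6.87 and 6.74 in Gr1lo cells with beads, 7.49 and 6.28 in Gr1lo cells without beads, 7.60 and 8.04 in Gr1hi cells with beads, and 7.07 and 7.15 in Gr1hi cells without beads. On array 1 of Gr1lo cells without beads it exceeded both Gr1hi arrays without beads. Its difference of -0.62 ± 0.23 did not pass (adjusted p = 0.0655), and without array 1 it was -0.92 (adjusted p = 0.000373). Averaging its 3 probe sets gave -0.05 (adjusted p = 0.683).

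**Figure D3:**
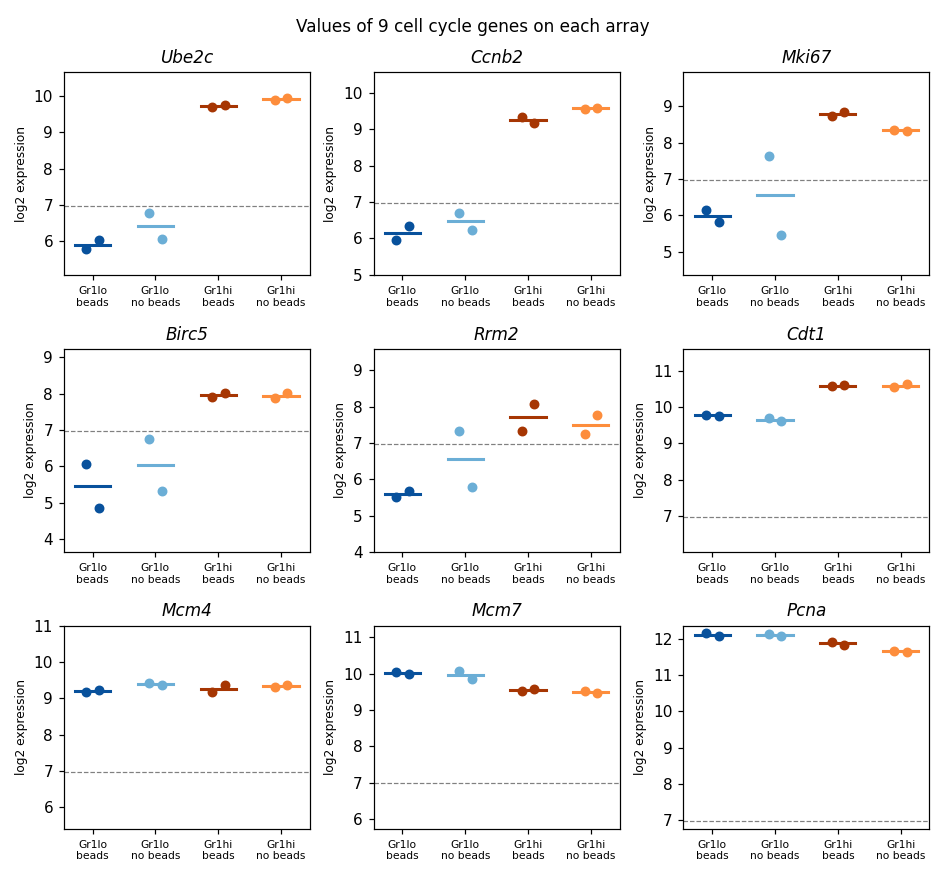
Log2 value of 9 genes on each array (points) with the mean of each group of 2 arrays (bars); the dashed line is the background level of 6.98, and all panels span the same number of log2 units. Ube2c, Ccnb2 and Birc5 lie below the line on every Gr1lo array, Cdt1 is lower in Gr1lo cells but far above the line, Mcm4 is level, and Mcm7 and Pcna are higher in Gr1lo cells.

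Replication genes were mixed in direction. Among the licensing factors, which load the MCM helicase onto origins, Cdt1 fell with little spread. Cdt1 read 9.77 and 9.76 in Gr1lo cells with beads, 9.69 and 9.61 in Gr1lo cells without beads, 10.57 and 10.60 in Gr1hi cells with beads, and 10.54 and 10.62 in Gr1hi cells without beads. The Gr1lo arrays all lay under the Gr1hi arrays, and both subsets were well above background. Its difference was -0.88 ± 0.06 (adjusted p = 8.46e-06), a 1.84-fold lower level. Cdc6, the other licensing factor, fell by 0.88 ± 0.13 (adjusted p = 0.000855) but was below background on every array. Dtl, the adaptor through which Cdt1 is degraded in S phase, differed by 0.02 ± 0.07 (adjusted p = 0.853). All 6 probe sets of Dtl were below background, and their average was lower in Gr1lo cells, at -0.21 (adjusted p = 0.012), with 1 of them at -0.88.

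The 6 subunits of the MCM helicase split. Mcm2 averaged 8.44 ± 0.15 in Gr1lo cells and 8.90 ± 0.10 in Gr1hi cells (SD, n = 4 each) and fell by 0.46 ± 0.08 (adjusted p = 0.00189). Mcm5 fell by 0.29 ± 0.10 (adjusted p = 0.0478), a call lost in 11 of 15 alternatives. Mcm3 and Mcm6 had differences of -0.21 ± 0.08 and -0.22 ± 0.12 that did not pass (adjusted p = 0.0676 and 0.194). Without array 1 of Gr1lo cells without beads both were called, Mcm3 at -0.27 (adjusted p = 0.0245) and Mcm6 at -0.37 (adjusted p = 0.00416). Mcm4 read 9.18 and 9.22 in Gr1lo cells with beads, 9.43 and 9.36 in Gr1lo cells without beads, 9.17 and 9.35 in Gr1hi cells with beads, and 9.30 and 9.37 in Gr1hi cells without beads. The Gr1lo and Gr1hi arrays overlapped for Mcm4, and its difference was -0.00 ± 0.06 (adjusted p = 0.987). Mcm7 read 10.03 and 10.00 in Gr1lo cells with beads, 10.06 and 9.86 in Gr1lo cells without beads, 9.52 and 9.57 in Gr1hi cells with beads, and 9.53 and 9.46 in Gr1hi cells without beads. For Mcm7 the order was turned round, with each Gr1lo array above each Gr1hi array, and it rose by 0.47 ± 0.07 (adjusted p = 0.00062), with 3 other probe sets of the gene at 0.40, 0.55 and 0.27. The helicase partners Gins2 and Cdc45 also parted: Gins2 fell by 0.65 ± 0.09 (adjusted p = 0.000425), while Cdc45 differed by 0.00 ± 0.08 (adjusted p = 0.972).

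Pcna, the sliding clamp of DNA polymerases, was higher in Gr1lo cells. Pcna read 12.14 and 12.08 in Gr1lo cells with beads, 12.13 and 12.08 in Gr1lo cells without beads, 11.90 and 11.83 in Gr1hi cells with beads, and 11.67 and 11.62 in Gr1hi cells without beads. Gr1lo arrays lay above all Gr1hi arrays, and within Gr1hi cells the arrays with beads were above those without. The averaged difference was 0.35 ± 0.06 (adjusted p = 0.00137). It was 0.46 without beads (adjusted p = 0.00398) and 0.24 with beads (adjusted p = 0.056). PCNA is also used in DNA repair.

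Genes of nucleotide supply differed in a similarly mixed way. Rrm2 read 5.52 and 5.67 in Gr1lo cells with beads, 7.33 and 5.79 in Gr1lo cells without beads, 7.34 and 8.07 in Gr1hi cells with beads, and 7.25 and 7.76 in Gr1hi cells without beads. Rrm2 is the S-phase subunit of ribonucleotide reductase. Array 1 of Gr1lo cells without beads overlapped the Gr1hi arrays and the other 3 Gr1lo arrays did not. Its difference was -1.53 ± 0.31 (adjusted p = 0.00492), and -1.91 (adjusted p = 0.000133) without array 1. Its call was lost with a trended and robust prior (adjusted p = 0.055). Rrm1, the large subunit of the same enzyme, differed by 0.15 ± 0.08 (adjusted p = 0.163), and averaging its 3 probe sets gave 0.33 (adjusted p = 0.00893). Tk1, the thymidine kinase of S phase, fell by 0.83 ± 0.10 (adjusted p = 0.000317). Tyms, thymidylate synthase, read below 5 on every array and differed by -0.16 ± 0.06 (adjusted p = 0.0767).

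The remaining replication genes work at the G1/S boundary or on chromatin. Uhrf1, which copies DNA methylation onto new strands, fell by 1.50 ± 0.27 (adjusted p = 0.00255), but averaging its 2 probe sets gave -0.80 (adjusted p = 0.00343). Its levels on the Gr1lo arrays were 5.04 and 5.23 with beads and 6.55 and 5.09 without, against 6.76 and 7.24 on Gr1hi arrays with beads and 7.01 and 6.90 without. Array 1 was again the high Gr1lo array. Of the E cyclins, which start S phase with Cdk2, Ccne2 fell by 0.83 ± 0.18 (adjusted p = 0.00624) and Ccne1 by 0.30 ± 0.08 (adjusted p = 0.014), a call lost in 3 of 15 alternatives. Chek1, the kinase of the replication checkpoint, had a difference of -0.21 ± 0.12 (adjusted p = 0.202), and averaging its 5 probe sets gave -0.27 (adjusted p = 0.00501).

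Of the transcription factors, E2f8, an atypical E2F that represses E2F targets, fell by 0.73 ± 0.09 (adjusted p = 0.000252). It averaged 6.46 ± 0.20 in Gr1lo cells and 7.20 ± 0.10 in Gr1hi cells (SD, n = 4 each). The activator E2f1 (-0.19, adjusted p = 0.0664), the forkhead factor of mitosis genes Foxm1 (-0.15, adjusted p = 0.151) and Mybl2 (-0.23, adjusted p = 0.0895), which also acts on mitosis genes, did not pass. Without array 1 of Gr1lo cells without beads E2f1 was called, at -0.26 (adjusted p = 0.0184), and with all its probe sets averaged at -0.16 (adjusted p = 0.049). Stmn1 read 7.74 and 7.73 in Gr1lo cells with beads, 9.02 and 7.72 in Gr1lo cells without beads, 10.44 and 10.45 in Gr1hi cells with beads, and 10.73 and 10.56 in Gr1hi cells without beads. Stmn1 encodes stathmin, which destabilises microtubules, and its Gr1lo arrays lay at least 1 log2 unit under the Gr1hi arrays. It fell by 2.49 ± 0.23 (adjusted p = 5.71e-05). Hmgb2, a chromatin protein of cycling cells, differed by 0.05 ± 0.07 (adjusted p = 0.637).

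Taken within each bead state, which use different arrays, the subset differences had the same sign for most genes. With beads, 28 of the 51 genes fell in Gr1lo cells and 1, Mcm7, rose, against 14.6% of all genes called lower, 11.8% called higher and 26.5% called in all. Without beads, 20 fell and 2, Mcm7 and Pcna, rose, against 13.6% called lower, 10.0% called higher and 23.6% called in all. Of the falls, 18 were called in both bead states, which is 64.3% of those with beads and 90.0% of those without. Among all genes called lower, the same shares were 69.2% and 74.7%. Differences were negative in both states for 41 of the 51 genes and positive in both for 5. The median of the mitosis genes was -0.62 with beads and -0.43 without, and that of the replication genes -0.38 and -0.17. Called with beads and not without were, among others, Rrm2 (-2.11, adjusted p = 0.00794, against -0.94, adjusted p = 0.169) and Cdk1 (-1.09, adjusted p = 0.00079, against -0.33, adjusted p = 0.142). The difference between the bead states was itself not called for either gene (adjusted p = 0.692 for Rrm2 and 0.528 for Cdk1). Leaving out array 1 of Gr1lo cells without beads gave 28 called genes without beads, against 19.2% of all genes, and a median of -0.36 for the replication genes there. Rrm2 (-1.72, adjusted p = 0.00503) and Cdk1 (-0.53, adjusted p = 0.0334) were then called without beads too, as were Uhrf1 (-1.86), Top2a (-0.83), Mcm6 (-0.49) and Mcm5 (-0.38). Mki67 without beads was -1.80 with that array and -2.89 without it.

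Are the genes altered in monocytes that carry beads? None of the 51 was called in either subset by limma. In Gr1hi cells 7 had an unadjusted p under 0.05, against 9.93% of all genes, of which 0.247% were called. In Gr1lo cells 8 did, against 13.2% of all genes, of which 0.225% were called. In Gr1hi cells with beads 36 of the 51 differences were positive, as were 8268 of the 18193 over all genes, and the median was 0.15 for mitosis genes, 0.08 for replication genes and -0.015 for all genes. Top2a had the largest of these differences, 0.71 ± 0.32 (adjusted p = 0.524), followed by Cdk1 at 0.51 ± 0.15 (adjusted p = 0.292). Tyms, at 0.49 ± 0.09, had the smallest adjusted p (0.0872). Its values were 4.88 and 4.71 with beads and 4.30 and 4.30 without, without overlap but all below background. In the opposite direction Hmgb2 differed by -0.47 ± 0.10 (adjusted p = 0.148) and Ccnb2 by -0.32 ± 0.17 (adjusted p = 0.58). Hmgb2 was called with a trended and robust prior (adjusted p = 0.0398) and Tyms with array weights (adjusted p = 0.0457).

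In Gr1lo cells 33 of the 51 bead differences were negative, as were 8055 of the 18193 over all genes, whose median was 0.02. The median was -0.14 for mitosis genes and -0.05 for replication genes, and the largest differences were those of Rrm2 (-0.96 ± 0.44, adjusted p = 0.398), Ccne2 (-0.74 ± 0.25, adjusted p = 0.285) and Uhrf1 (-0.69 ± 0.38, adjusted p = 0.474). These values turned on array 1 of the cells without beads. Without it the median of the mitosis genes was 0.11 and none of the 51 genes was called. Without array 2 the median was -0.32 and 6 genes were called lower with beads, against 1.73% of all genes: Mki67 (-1.66), Stmn1 (-1.28), Uhrf1 (-1.42), Ube2c (-0.87), Rrm2 (-1.74) and Aurkb (-0.92).

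Markers of cell state moved with beads in Gr1lo cells. Of 5 classical markers 3 were called lower with beads, F13a1 (-3.04), Vcan (-2.97) and Chil3 (-1.48), and none of 8 nonclassical markers was called. The log2 of the summed level of the classical markers ranged from 12.44 to 12.56 in Gr1lo cells with beads and from 13.92 to 14.73 in Gr1lo cells without. Also called lower were Cd209a (-3.13) of 5 dendritic cell markers, Klrd1 (-2.40) of 5 NK cell markers and Mmp8 (-2.20) of 6 neutrophil genes. In Gr1hi cells 2 of 8 nonclassical markers were called higher with beads, Eno3 (0.86) and Treml4 (0.67), and no classical marker was called. The other markers called there were Mpo (-1.16) of 8 marrow genes, Mmp9 (-0.91) of 6 neutrophil genes, Hba-a2 (-0.83) of 8 erythroid genes and Cd28 (0.93) of 6 T cell genes. The part of these markers in the bead differences of the division genes was not tested.

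The difference between the bead effects of the subsets was called for none of the 51 genes. An unadjusted p under 0.05 was found for 4, against 7.84% of all genes, of which 0.0440% were called. The smallest adjusted p was 0.215, for Tyms, at -0.75 on the log2 scale. The medians were -0.26 for mitosis genes, -0.12 for replication genes and 0.03 for all genes. Leaving out array 2 of Gr1lo cells without beads brought 4 calls, Mki67, Stmn1, Top2a and Uhrf1, against 0.918% of all genes, and leaving out array 1 brought none.

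**Figure D4:**
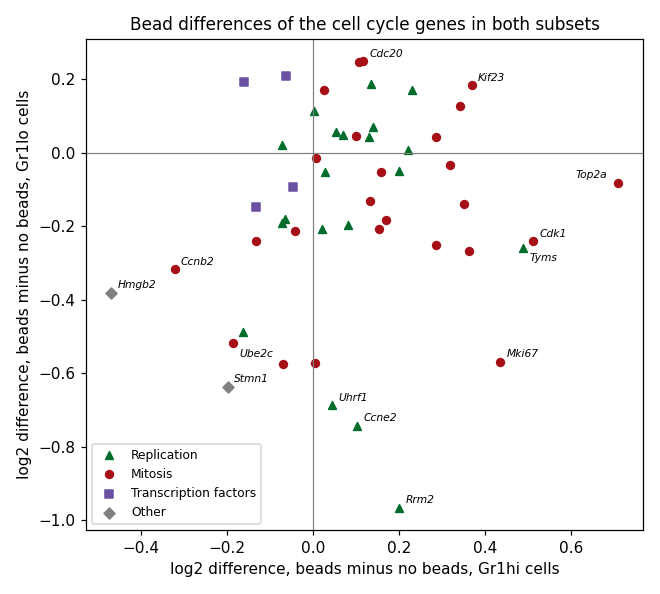
Bead minus no-bead log2 difference of each of the 51 genes in Gr1hi cells (horizontal) against that in Gr1lo cells (vertical), by role; no point was called on either axis. Top2a and Cdk1 lie to the right and Rrm2, Ccne2 and Uhrf1 at the bottom. Without array 1 of Gr1lo cells without beads, the vertical values of Rrm2, Ccne2 and Uhrf1 were -0.19, -0.43 and 0.04.

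Other genes of the same processes moved in both directions. Of 50 further mitosis genes 49 were measured, and averaged over bead state 23 fell and 8 rose in Gr1lo cells, with a median of -0.22. Over all genes 20.9% were called lower and 14.8% higher, so the rises were near the share over all genes. Falls of more than 1 log2 unit were found for 5 of them and of more than 2 for none, against 2.44% and 0.467% of all genes. Of the 22 above background in at least 1 group, a filter that 1 subset alone can pass, 11 fell and 6 rose. Among all genes with a mean above background 30.7% were called lower and 25.5% higher. The largest falls were Cdc25b (-1.41 ± 0.13, adjusted p = 6.38e-05), a phosphatase that activates Cdk1, the condensin subunit Ncapg2 (-1.40 ± 0.11), the cytokinesis protein Anln (-1.28 ± 0.15), the Cdk-binding protein Cks1b (-1.23 ± 0.11) and the kinetochore gene Spc24 (-1.04 ± 0.08). Among the rises, Cks2, a close relative of Cks1b, stood first with 1.77 ± 0.08 (adjusted p = 1.28e-06). It read 11.65 and 11.61 in Gr1lo cells with beads, 11.41 and 11.51 in Gr1lo cells without, 9.84 and 9.54 in Gr1hi cells with and 9.95 and 9.78 in Gr1hi cells without. Its groups did not overlap between subsets, and all were above background. Others were Smc4 (0.68 ± 0.06), a condensin subunit, and Pttg1 (0.50 ± 0.08), the securin that holds back separase.

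Of 46 further replication genes 43 were measured, of which 10 fell and 9 rose, with a median of -0.03. Over all genes 20.9% were called lower and 14.8% higher, so the falls were near the share over all genes. The falls included Dut (-0.99 ± 0.16, adjusted p = 0.0014), which removes dUTP, the fork protection gene Timeless (-0.79 ± 0.08) and the primase subunit Prim1 (-0.71 ± 0.10). Rpa2, a subunit of the single-strand binding protein, rose by 0.72 ± 0.11 (adjusted p = 0.000928), and the polymerase subunits Pola2 and Pold1 rose by 0.56 ± 0.08 and 0.53 ± 0.08. Genes that hold cells in G1 or release them from it were measured in 33 of 33 cases. Of these 12 rose and 6 fell, against 14.8% and 20.9% of all genes, with a median of 0.07. The anti-proliferative gene Btg2 (1.85 ± 0.19, adjusted p = 9.5e-05), the Cdk inhibitor Cdkn1b (1.14 ± 0.10, adjusted p = 5.04e-05) and the retinoblastoma gene Rb1 (1.08 ± 0.10, adjusted p = 5.63e-05) rose in Gr1lo cells. So did the D cyclin Ccnd2 (1.85 ± 0.11, adjusted p = 4.11e-06), which promotes G1 progress. Its partner kinase Cdk4 fell by 1.12 ± 0.08 (adjusted p = 1.5e-05), and Tfdp1, the partner of E2F factors, by 0.71 ± 0.06.

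**Figure D5:**
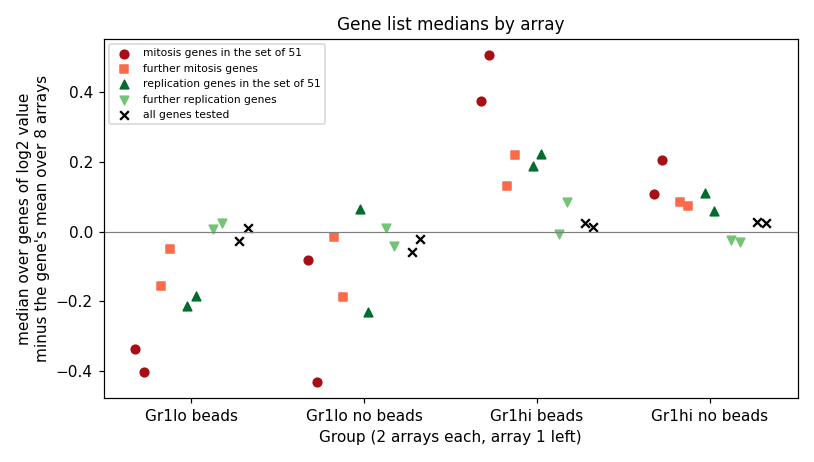
Median over the genes of each list of the log2 value minus the gene's mean over the 8 arrays, for each array (points, array 1 left of array 2 in each group). The mitosis genes are lowest on both Gr1lo arrays with beads and on array 2 of Gr1lo cells without beads and highest on the Gr1hi arrays with beads, while the further replication genes stay between -0.04 and 0.09.

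Genes of dividing marrow cells and of neutrophils moved with subset in the same direction. Of 8 measured genes of marrow progenitors and promyelocytes, 6 were lower in Gr1lo cells, led by Prtn3 (-3.00), Ctsg (-2.0) and Fcnb (-1.56). Over all genes 20.9% were called lower. With beads 3 of the 8 marrow genes were called lower, and without beads 5 were called lower and 1 higher. In Gr1lo cells with and without beads 1 and 2 of these genes were above background, against 4 and 5 in Gr1hi cells. The log2 of their summed level ranged from 9.03 to 9.18 in Gr1lo cells with beads, 9.27 to 9.77 in Gr1lo cells without, 10.66 to 10.67 in Gr1hi cells with and 10.95 to 11.15 in Gr1hi cells without. The progenitor genes Kit and Cd34 were below background in all groups, with differences of -0.08 and 0.16. Neutrophil genes were lower in 6 of 6 cases, led by Mmp8 (-4.32). Within bead states, 2 of the 6 were called lower with beads and 5 without. The log2 of their summed level ranged from 8.77 to 8.84 in Gr1lo cells with beads, 9.18 to 9.48 in Gr1lo cells without, 11.38 to 11.46 in Gr1hi cells with and 11.86 to 11.99 in Gr1hi cells without. In Gr1hi cells Mmp8 alone averaged 11.07 with beads and 11.46 without and made up most of this sum. Cxcr2 was below background in all groups. Their part in the differences of the division genes was not tested.

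Of the 51 genes 12 had 1 probe set and 39 had more. Of 72 probe sets that were not kept, 53 had the sign of the kept one, and of the 16 of them above background 15 did. Cdt1 had a further probe set at -0.84, Ccna2 at -1.30, Cdca8 at -1.15 and Mcm2 at -0.70, close to or beyond the kept values. Cdca3, Bub1 and Uhrf1 had only fainter ones with smaller differences, between -0.25 and -0.09. Averaging all probe sets moved other called differences by over 1.5 times for Bub1 (-0.77), Cdc20 (-0.55), Cdt1 (-0.55), E2f8 (-0.43) and Nusap1 (-0.43), all of which stayed called. The kept probe sets of Rrm2, Mcm4, Mcm5, Aurkb and Ccne1 carry the suffix that Affymetrix gives to sets that may cross-hybridise.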

How the data were processed

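Per the labels' protocols, monocytes were sorted from blood, and their RNA was purified (TRIzol, then RNeasy), amplified, biotin-labelled and read on Affymetrix mouse arrays. The authors deposited log2 expression values of 45101 probe sets on 8 arrays, which were normalised by RMA and compared with limma, per the submitters' processing notes. Neither versions nor the chip definition is given in the sources used here. RMA models each probe set over all arrays. Array differences near background are compressed.

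The deposited values were used as they stood. Of the probe sets, 34945 carried 1 symbol, and each of 18193 genes was represented by its probe set of greatest average signal. As background level served the 95th percentile of 115 receptor and keratin-associated genes, each at its mean over arrays. It is not a detection call, and a difference against a group below it understates the change. A linear model with a mean for each of the 4 groups was fitted over the 8 arrays in limma 3.58.1, R 4.3.3 (lmFit and default eBayes, with 4 residual and 4.48 prior degrees of freedom), two-sided, with Benjamini-Hochberg adjustment over all genes and calls at 0.05. SE is the moderated standard error and SD the spread over arrays. The 2 arrays per group limit precision. The fit was tested on simulated data. No set test was run. Any of the 51 genes could be named, and of each other cell cycle list up to 5 called genes with the largest rise and 5 with the largest fall; Fn1, Prtn3 and Pf4 on array 1 were picked after their values were seen. The genes, lists and motifs were chosen with earlier results of these data known.

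Alternatives were a background filter, the mean of all probe sets, the compared arrays alone, a trended and robust prior, array weights, median centring, leaving out each array, the replicate number as a block, and cyclic loess. Promoters came from RefSeq, GRCm38.p6. Tables were prepared with pandas 2.3.3 and drawn with matplotlib 3.10.9.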

Additional observations from a re-analysis of the deposited data

How the results depend on the processing

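With 2 arrays per group, leaving out an array leaves a lone array that is assumed to vary like the other groups. The share of all genes called also changed with the array left out. A shift in the number called therefore need not be particular to the 51 genes. Over these runs the number of the 51 genes called ranged from 30 to 39 for Gr1lo against Gr1hi cells averaged over bead state, 22 to 33 with beads, 12 to 28 without beads, 0 to 6 for beads in Gr1lo cells and 0 to 4 for the difference between bead effects. For beads in Gr1hi cells it stayed at 0. Median differences of replication and mitosis genes ranged from -0.35 to -0.23 and -0.67 to -0.45 on average, -0.43 to -0.35 and -0.78 to -0.58 with beads, and -0.36 to -0.12 and -0.55 to -0.31 without. For beads in Gr1lo cells they ranged from -0.23 to 0.0327 and -0.32 to 0.11, and for the difference between bead effects from -0.27 to -0.0365 and -0.50 to -0.048. For beads in Gr1hi cells they ranged from -0.0157 to 0.143 and 0.091 to 0.2465, so the sign of the replication median was not steady. Restricting the test to genes above background left 29 of the 51 genes and gave 20 calls on average, against 61.4% of all genes so kept. The mitosis median was then -0.91 on average, -1.19 with beads and -0.75 without, over fewer genes. The filter uses the mean over all arrays. With both Gr1lo group means below background, Ube2c, Ccnb2, Mki67, Cdca3, Top2a, Cdk1 and Tk1 passed it only through their Gr1hi values. The larger falls under this filter are therefore partly set by the filter itself. For beads in Gr1hi cells, a trended and robust prior gave 1 call (Hmgb2) and array weights 1 call (Tyms). Averaging all probe sets turned the bead difference of Cdc20 in Gr1lo cells to -0.057, where it had been 0.25. The cause of these shifts was not tested. Same-numbered arrays deviated together within subsets (correlations 0.36 for Gr1hi and 0.27 for Gr1lo) but hardly across them (-0.02 to 0.09), and nothing in the labels says that a number pairs arrays. With the replicate number as a block, 32 of the 51 genes were called on average, 30 with beads, 23 without and 0 for either bead comparison. Over all genes the shares called with this block were 37.6% on average, 28.5% with beads, 25.6% without and 0.3% for either bead comparison. Signals below background, as for 17 of the 51 genes, limit what the arrays can show.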
